A study of Rattus norvegicus with 5 samples.

Results

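The enzymes described here modify collagen after it is made: the prolyl 4-hydroxylases, the lysyl hydroxylases and the lysyl oxidase family. Of 10 listed rat genes (P4ha1, P4ha2, P4ha3, P4hb, Plod1, Plod2, Plod3, Lox, Loxl1 and Loxl2), 9 were matched to a probe through the RefSeq accession of the probe, of 15069 genes named in this way. Lox was not matched and has no value here. The members were chosen by enzyme family and selected on the levels of these same 5 arrays, since earlier results, P4ha3 and P4ha2 with knockdown among them, were known when the list was drawn up. Their values are therefore a description and carry no test.

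Prolyl 4-hydroxylase is a tetramer of alpha and beta subunits in the endoplasmic reticulum. The alpha subunit, encoded by P4ha1, P4ha2 or P4ha3, carries the catalytic site, and the beta subunit is the protein disulfide isomerase encoded by P4hb. The enzyme converts proline of new collagen chains to hydroxyproline, which keeps the triple helix stable at body temperature, and uses oxygen, iron, alpha-ketoglutarate and ascorbate to do so. The lysyl hydroxylases, encoded by the Plod genes, work on lysine with the same cofactors. Outside the cell, the copper-dependent lysyl oxidases convert lysine and hydroxylysine to aldehydes, from which the cross-links of collagen and elastin form. In liver, collagen cross-linking is known mainly from fibrosis, where stellate cells and fibroblasts make most of the matrix.

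The arrays hold RNA of the rat liver line BRL-3A in 5 groups of 1 array each. Cells were transduced with a Tmub1 overexpression lentivirus, with the negative control virus of the overexpression vector, with a Tmub1 knockdown lentivirus or with the negative control virus of the knockdown vector, and normal cells had no virus. RNA was taken 48 h after transduction. Tmub1 is a membrane protein carrying a domain similar to ubiquitin, and the series asks how it bears on transcription in hepatic cells. The level of a gene below is the log2 signal of its probe minus the 75th percentile of the array, so levels compare arrays for 1 probe and do not compare genes with each other. No group has a second array, so the only error available is that of the scanner's reading of a spot, given as a 95% interval, and no p-value was computed. Nothing in the labels gives the number of cultures behind an array, and in bulk RNA fewer cells of a type and less RNA per cell cannot be told apart. A gene was called higher or lower from a 2.5-fold difference, the fold that the series' design text names.

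The libraries did not stand equally far apart. Over 10702 genes above background on all arrays, the levels correlated across genes at 0.986 between overexpression and its negative control and at 0.931 between knockdown and its negative control. The knockdown and normal arrays were also brighter, with median signals of 356.2 and 329.4, against 143.9, 116.4 and 159.7 with overexpression, its negative control and the knockdown negative control. The array of normal cells was scanned on another day than the 4 arrays of transduced cells, so scan day and transduction cannot be told apart. Skeletal muscle markers other than Des separated these arrays as well. All 5 on the list were above background on the 4 arrays of transduced cells, with median levels between 0.80 and 2.05, and 4 in normal cells, with a median of -5.86. The log2 of their summed signal share lay between 4.02 and 4.27 on the transduced arrays and was 0.46 in normal cells, and Myh4 was not above background there. Des was at 0.39 in normal cells and at 0.16 to 1.04 on the transduced arrays. The part of these transcripts in any value set against normal cells was not tested. The cells are labelled as hepatocytes. Of 10 hepatocyte markers 4 to 7 were above background per array, and the albumin gene Alb was above background on 2 of the 5 arrays, at -4.65 with overexpression and -4.39 in the knockdown negative control, and not on the other 3. Of 12 stellate cell and fibroblast markers 10 to 12 were above background per array. Their median level was 0.99 to 1.76 on the transduced arrays and -0.18 in normal cells. Dcn was at 1.18 to 1.84 on the transduced arrays and -4.20 in normal cells, and Pdgfra was not above background there. Col1a1 and Col3a1 in normal cells lay within the range of the transduced arrays. Col1a2 was highest in normal cells, at 5.86, against 4.27 to 5.84 on the transduced arrays. Lrat was above background in normal cells and with knockdown only. The endothelial marker Pecam1 and the leukocyte marker Ptprc were above background on all arrays but that of normal cells. The other measured markers of both lists were above background there too, 4 of 5 in each. Among them Kdr was at 1.70 in normal cells and Csf1r at -0.09, the highest of the arrays for Csf1r. Tmub1 itself was at -1.38 with knockdown, against 0.46 in its negative control, 3.60-fold lower. It was at 0.48 with overexpression and 0.44 in the overexpression negative control, a 1.03-fold difference, so Tmub1 was not raised at its probe. No source used here says if that probe reads the viral transcript.

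The upstream sequences of the catalytic alpha subunits are shown because these 3 genes were higher together with knockdown, as described below. They are the 250 bases before the start site that RefSeq gives on the GRCr8 build, 5′ to 3′ on the strand of the gene: chr20:27844796-27845045 (+) for P4ha1, chr10:38743644-38743893 (+) for P4ha2 and chr1:164040614-164040863 (+) for P4ha3. Capitals mark the letters ACGTG and GCGTG on either strand, the core of the site that hypoxia-inducible factors bind.
P4ha1: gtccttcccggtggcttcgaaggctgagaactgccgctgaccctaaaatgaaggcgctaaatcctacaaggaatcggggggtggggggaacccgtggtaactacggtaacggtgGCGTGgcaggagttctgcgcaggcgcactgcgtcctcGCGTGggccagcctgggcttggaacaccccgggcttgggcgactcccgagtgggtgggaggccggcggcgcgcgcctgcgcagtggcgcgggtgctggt
P4ha2: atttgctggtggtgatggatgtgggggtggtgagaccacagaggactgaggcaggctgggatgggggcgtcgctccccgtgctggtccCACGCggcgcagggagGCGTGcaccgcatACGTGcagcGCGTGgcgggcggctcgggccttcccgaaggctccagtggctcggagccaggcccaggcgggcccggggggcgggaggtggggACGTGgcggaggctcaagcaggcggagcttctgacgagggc
P4ha3: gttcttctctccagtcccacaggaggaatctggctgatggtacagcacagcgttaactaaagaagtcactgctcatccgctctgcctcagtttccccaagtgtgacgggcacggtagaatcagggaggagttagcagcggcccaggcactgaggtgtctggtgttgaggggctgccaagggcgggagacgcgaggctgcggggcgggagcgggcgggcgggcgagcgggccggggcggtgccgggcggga

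P4ha1 held GCGTG at 2 places, starting 136 and 99 bases before the start site. P4ha2 held GCGTG at 3 places, 162, 146 and 124 bases before it, and ACGTG at 2 places, 133 and 41 bases before it. P4ha3, the gene with the widest differences between arrays, held neither. The marked matches do not overlap each other. Of 27457 rat promoter windows of the same length, 27.2% held GCGTG and 16.9% held ACGTG, and among the 12323 of genes on the array 35.9% and 19.3% did. Of the 8 members with a window in the RefSeq table, 5 held GCGTG (P4ha1, P4ha2, Plod1, Plod2 and Plod3) and 2 held ACGTG (P4ha2 and Plod2). The windows of the 8 members were 60.4 to 74.8% G or C, against a median of 52.0% over all windows. The part of base composition in these counts was not tested. With knockdown P4ha1, P4ha2 and P4ha3 were higher, and Plod1, Plod2 and Plod3 stayed within 2.5-fold. Plod3 passed 2.5-fold under 3 of the processing alternatives given at the end. Any link between these letters and the knockdown differences was not tested. The letters TGANTCA, the AP-1 site, were in none of the 8 windows and in 6.36% of all, and TATAAA was in none of the 8 and in 13.1% of all. CATTCC, the core that TEAD factors bind, was found for Loxl1 only, against 11.8% of all windows, and CCAAT for P4hb only, against 34.3%.

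All 9 matched members were well above background on all 5 arrays, each by 1 probe with 1 spot. The knockdown array was compared with its negative control to see where they stand when Tmub1 is reduced. The 3 catalytic alpha subunits of prolyl 4-hydroxylase and the lysyl oxidase Loxl2 were higher with knockdown, by 3.57-fold for P4ha1, 4.35-fold for P4ha2, 52.7-fold for P4ha3 and 4.31-fold for Loxl2. The beta subunit P4hb, the 3 lysyl hydroxylases and Loxl1 stayed within 2.5-fold. Thus 4 of 9 members were at least 2.5-fold higher and 0 were lower, where 8.64% of 12792 genes that could be called were higher and 9.5% lower. The median difference of the members was 1.00 log2, beside -0.14 over all genes that could be called. In either direction 18.1% of all genes passed. The members were listed with these values in view, so nothing is read from that share. Against the overexpression negative control the same 4 members were higher and 0 lower, where 29.5% of all genes passed, 13.3% higher and 16.3% lower. Against normal cells 3 were higher and 0 lower, where 30.8% passed, 11.2% higher and 19.5% lower.

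**Figure D1:**
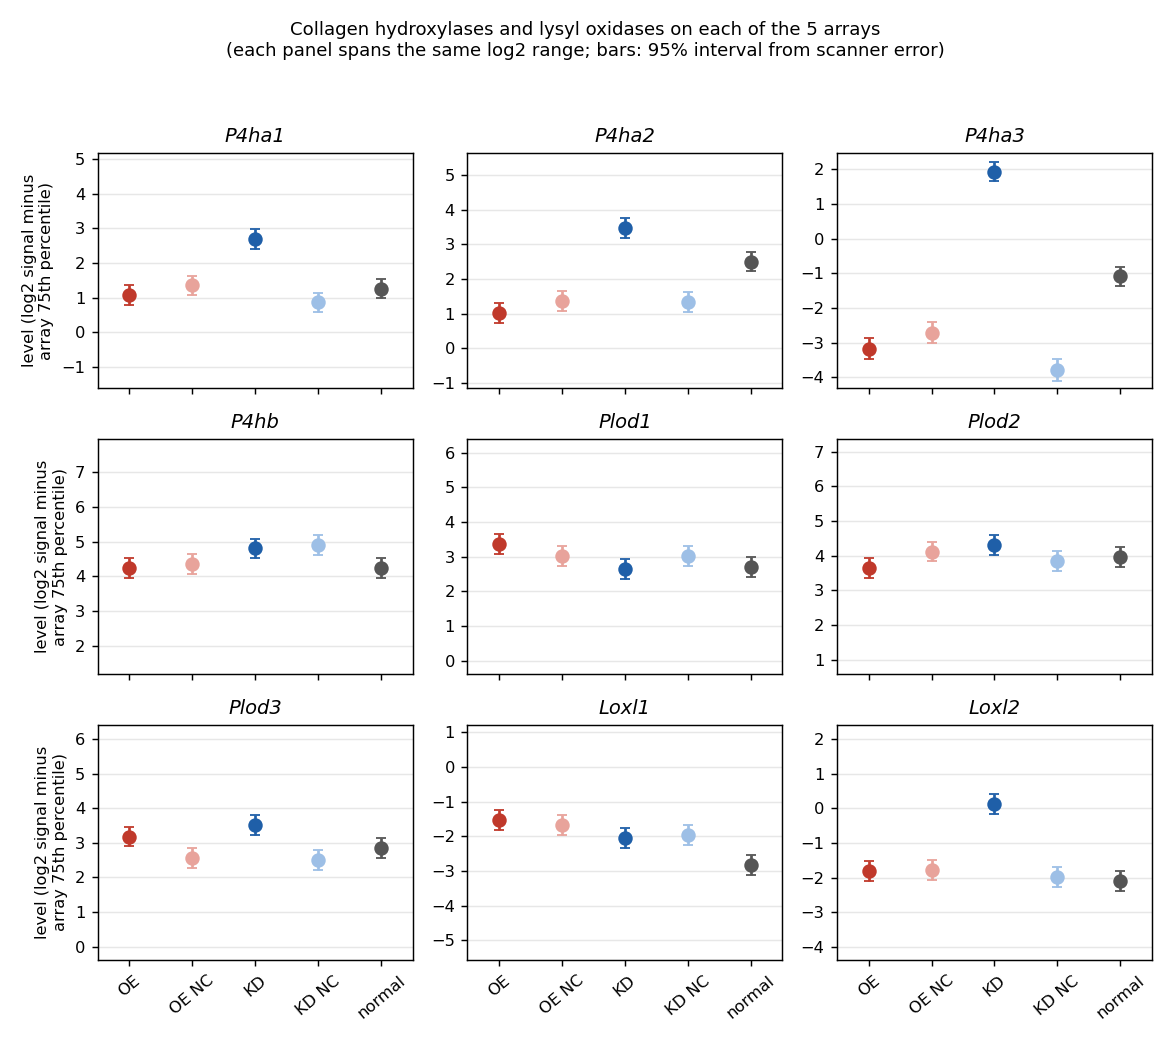
Level of each of the 9 members on the 5 arrays: Tmub1 overexpression (OE), its negative control (OE NC), Tmub1 knockdown (KD), its negative control (KD NC) and normal cells. The vertical axis is the log2 signal minus the 75th percentile of the array, each panel spans the same log2 range, and bars are the 95% interval from scanner error. The knockdown point is the highest in P4ha1, P4ha2, P4ha3 and Loxl2, and also in Plod2 and Plod3, by 0.19 and 0.33 log2 over the next array. In P4ha2 normal cells, at 2.51, lie between the knockdown point and the other 3 arrays.

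P4ha1 encodes the main alpha subunit of most tissues. Its level was 1.08 with overexpression and 1.35 in the overexpression negative control, 2.70 with knockdown and 0.86 in the knockdown negative control, and 1.26 in normal cells. The knockdown array was the highest of the 5, and the other 4 lay within 0.49 log2 of each other. The difference between knockdown and its negative control was 1.84 log2, with a scanner interval of 1.44 to 2.24. It was 1.35 log2 against the overexpression negative control, just past the 2.5-fold line at 1.32, and 1.44 against normal cells.

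P4ha2 encodes the alpha subunit known above all from cartilage and endothelium. Its level was 1.02 with overexpression and 1.37 in the overexpression negative control, 3.46 with knockdown and 1.34 in the knockdown negative control, and 2.51 in normal cells. The knockdown array was again the highest, and normal cells lay above the other 3 transduced arrays. The difference between knockdown and its negative control was 2.12 log2, with a scanner interval of 1.72 to 2.52. The 2 negative controls differed by 0.02 log2, so the value against the overexpression negative control was nearly the same at 2.10. Against normal cells it was 0.96, 1.95-fold, and no longer past the threshold.

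P4ha3 encodes the third alpha subunit, described as low in most adult tissues. Its processed signal was 71.2 with overexpression and 80.3 in the overexpression negative control, 5312.1 with knockdown and 49.6 in the knockdown negative control, and 608.0 in normal cells. On the level scale these were -3.18 with overexpression and -2.72 in the overexpression negative control, 1.94 with knockdown and -3.78 in the knockdown negative control, and -1.09 in normal cells. The gene was dim on 3 of the arrays and of middle brightness with knockdown. The difference between knockdown and its negative control was 5.72 log2, with a scanner interval of 5.29 to 6.15, and ranked 2 of 12792 genes from the highest. The size of it depended on the control array: 25.2-fold against the overexpression negative control and 8.14-fold against normal cells. The 2 negative controls were 1.06 log2 apart for this gene, the most of any member.

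P4hb encodes the beta subunit, a disulfide isomerase that also serves folding of other secreted proteins. Its level was 4.24 with overexpression and 4.36 in the overexpression negative control, 4.81 with knockdown and 4.90 in the knockdown negative control, and 4.24 in normal cells. The 2 arrays of the knockdown vector were the highest, and knockdown stood at -0.10 log2 from its negative control, with a scanner interval of -0.50 to 0.30. Against the overexpression negative control and normal cells it was 0.45 and 0.57 log2 higher. The catalytic subunits and their beta partner therefore differed in the knockdown comparison by the values given. The difference between them was not tested.

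The lysyl hydroxylases differed less between arrays. Plod1, which acts on lysine of the helical part of collagen, had a level of 3.37 with overexpression and 3.02 in the overexpression negative control, 2.64 with knockdown and 3.02 in the knockdown negative control, and 2.71 in normal cells. It was lowest on the knockdown array, at -0.38 log2 from its negative control with a scanner interval of -0.78 to 0.02. Plod2, which acts on the telopeptides at the ends of the chains and so sets the kind of cross-link, had 3.65 with overexpression and 4.12 in the overexpression negative control, 4.31 with knockdown and 3.85 in the knockdown negative control, and 3.96 in normal cells. Its difference with knockdown was 0.46 log2, and 0.19 against the overexpression negative control. All 5 of its levels lay within 0.66 log2.

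Plod3, which also adds glucose and galactose to hydroxylysine, had 3.18 with overexpression and 2.56 in the overexpression negative control, 3.51 with knockdown and 2.51 in the knockdown negative control, and 2.85 in normal cells. Both Tmub1 vectors were above all 3 control arrays. With knockdown it was 2.00-fold higher than its negative control, 1.00 log2 with a scanner interval of 0.60 to 1.40. It passed 2.5-fold under quantile normalization, cyclic loess and in the authors' deposited table, at 1.54, 1.54 and 1.56 log2.

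The members of the lysyl oxidase family went separate ways. Loxl2, a cross-linking enzyme with scavenger receptor domains that is known to act on the collagen of basement membranes, had a level of -1.81 with overexpression and -1.77 in the overexpression negative control, 0.13 with knockdown and -1.97 in the knockdown negative control, and -2.10 in normal cells. The knockdown array was the highest and the other 4 lay close together, so the difference kept its size against every control: 2.11 log2 against its own negative control, 1.90 against the other and 2.23 against normal cells. Loxl1, needed for elastic fibres in mice, had -1.52 with overexpression and -1.68 in the overexpression negative control, -2.06 with knockdown and -1.96 in the knockdown negative control, and -2.84 in normal cells. It was lowest in normal cells, and knockdown lay -0.09 log2 from its negative control. The signs of the small knockdown differences of P4hb, Plod1 and Loxl1 depended on the scaling, with highest values of 0.67, 0.17 and 0.20 log2.

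**Figure D2:**
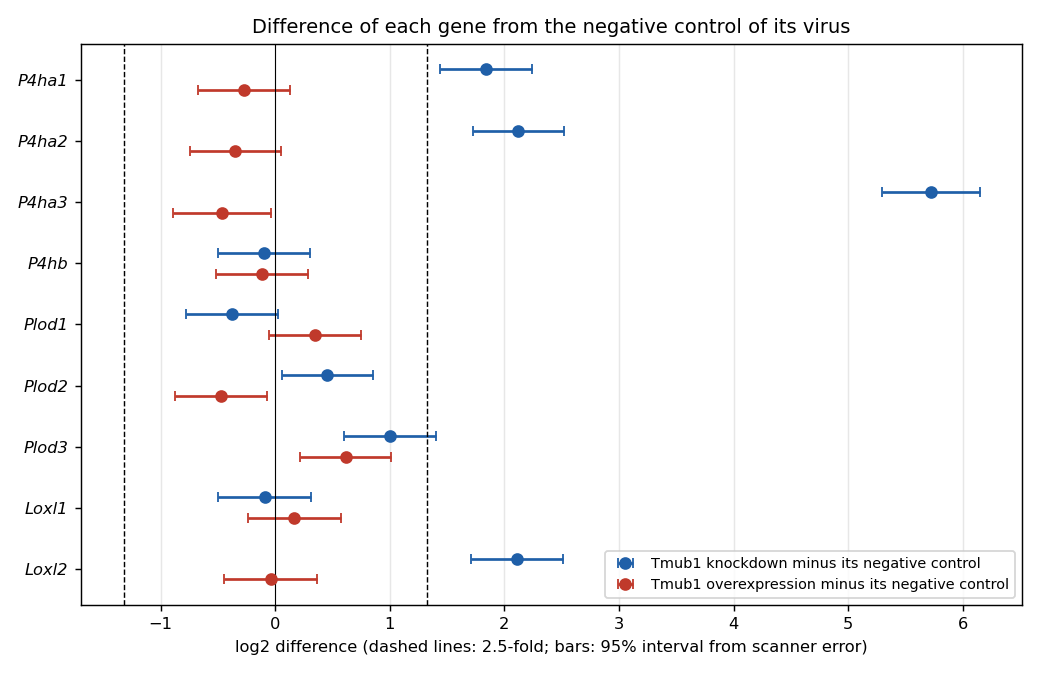
Log2 difference of each member between Tmub1 knockdown and its negative control (blue) and between Tmub1 overexpression and its negative control (red), with the 95% interval from scanner error and dashed lines at 2.5-fold. P4ha1, P4ha2, P4ha3 and Loxl2 pass the line with knockdown, and 0 members pass it with overexpression.

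The overexpression array was compared with the negative control of its vector. Of the 9 members 0 were higher and 0 lower by 2.5-fold, where 3.09% of 11799 genes that could be called passed, 1.9% higher and 1.19% lower. Their differences lay between -0.47 and 0.61 log2, with a median of -0.11 beside -0.02 over all genes that could be called. P4ha1, P4ha2 and P4ha3 stood at -0.27, -0.35 and -0.46 log2, and Loxl2 at -0.04. The widest were Plod3 at 0.61, with a scanner interval of 0.21 to 1.01, and Plod2 at -0.47, with one of -0.87 to -0.07. Against the knockdown negative control P4ha1 and P4ha3 turned to 0.22 and 0.60 log2, while P4ha2 stayed at -0.32, and 0 members passed 2.5-fold. Of all genes 4.2% did in that comparison, 2.04% higher and 2.16% lower. Since Tmub1 was not raised at its probe, these values describe cells that carried the vector.

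The 2 negative controls differed by 2.5-fold in 0 of the 9 members, where 8.75% of 11926 genes did so, 4.95% higher and 3.81% lower in the knockdown negative control. The knockdown negative control was 0.55 log2 above the overexpression negative control for P4hb and below it for the other 8 members, by at most the 1.06 of P4ha3. Against normal cells P4ha3 was 6.47-fold lower in the knockdown negative control and 3.10-fold lower in the overexpression negative control, the only member past the threshold there. For the knockdown negative control 17.2% of all genes passed, 6.93% higher and 10.3% lower, and for the overexpression negative control 18.7%, 7.81% higher and 10.9% lower. P4ha2 was 2.24- and 2.20-fold lower and Loxl1 1.83- and 2.22-fold higher in the knockdown and overexpression negative controls than in normal cells. With the overexpression vector P4ha2 and P4ha3 were 2.80- and 4.27-fold lower than in normal cells, where 17.7% of all genes passed, 7.32% higher and 10.4% lower. For P4ha2 and P4ha3 the knockdown array was thus the only transduced array above normal cells.

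**Figure D3:**
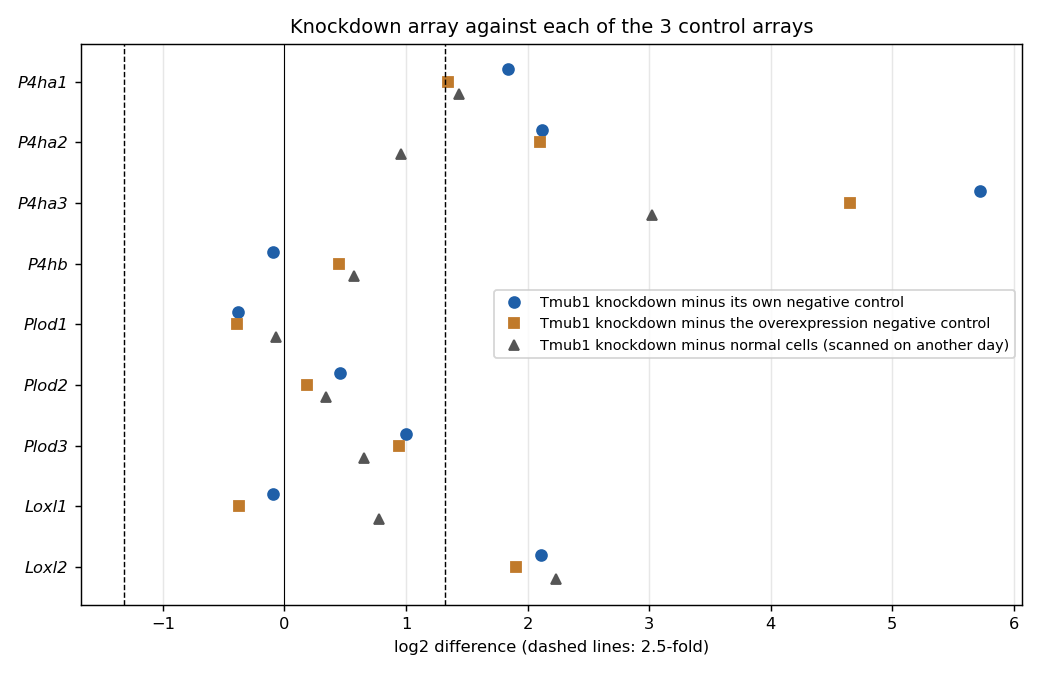
Log2 difference of each member between the knockdown array and each of the 3 control arrays: its own negative control (circles), the overexpression negative control (squares) and normal cells (triangles), with dashed lines at 2.5-fold. P4ha1, P4ha3 and Loxl2 pass 2.5-fold against all 3, P4ha2 falls short against normal cells at 0.96 log2, and the other 5 members pass against none.

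The genes whose levels over the 5 arrays lay nearest to those of P4ha3, the member with the widest range, were Aurkb, Serpinb2, Pask, Tpx2 and Edn1. Likeness was the root mean squared distance of levels centred on their mean over the 5 arrays, among 10701 other genes above background on all of them. The distances were 0.60 for Aurkb, a mitotic kinase, 0.63 for the protease inhibitor Serpinb2, 0.63 for the kinase Pask, 0.71 for the spindle factor Tpx2 and 0.72 for Edn1, the precursor of endothelin, against a median of 2.20 log2 over all genes searched. All 5 were highest on the knockdown array. The order of the remaining arrays was not shared throughout: in Edn1 the overexpression negative control, at -0.80, lay above normal cells at -1.39. With 5 arrays such a distance rests mainly on the knockdown array, and it says nothing of shared control. Among the members themselves P4ha1 and Loxl2 were the nearest pair, at 0.27.

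The rest of the collagen pathway was read from 11 lists, of which 107 of 140 symbols were measured. With knockdown 17 of the 103 genes that could be called were higher and 5 lower, 16.5% and 4.85%, beside 8.64% and 9.5% over all genes. How far higher calls outnumbered lower ones depended on the control. Against the overexpression negative control 21 were higher and 20 lower, 20.4% and 19.4%, beside 13.3% and 16.3% over all genes. Against normal cells 25 were higher and 11 lower, 24.3% and 10.7%, beside 11.2% and 19.5% over all genes. The lists were chosen with earlier results known, so nothing is read from these shares. Both other lysyl oxidases measured were higher with knockdown: Loxl3 had a level of 0.32, against -1.94 in the negative control, 4.81-fold higher, and Loxl4 was 2.63-fold higher from a dim probe. The second probe of Loxl4, dimmer still by mean level, gave 2.00 log2, with no check against background. Against the overexpression negative control Loxl3 was still 1.59 log2 higher, and Loxl4, at 1.08, was not past the threshold.

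Of 15 collagen folding and export genes, 2 were higher and 0 lower with knockdown, with a median of 0.23 log2. They were Klhl12 and Sec23a. Klhl12, an adaptor of the ubiquitin ligase that enlarges COPII vesicles for procollagen, was at 2.10 log2 from a dim probe. Sec23a, a coat protein of these vesicles, was at 1.41. Against normal cells Klhl12 was 3.54-fold higher, and Sec23a, 1.61-fold higher, was short of the threshold. The prolyl 3-hydroxylase P3h1 and its partners Crtap and Ppib stood at -0.22, 0.11 and -0.15 log2, and the collagen chaperone Serpinh1 at -0.76. The glycosyltransferase Colgalt1 was at 0.99, with its other probe at 1.87, and Fkbp10, which is known to assist lysyl hydroxylase 2, at 0.90, short of the threshold. The list also held Leprotl1, an endosomal protein, at -0.03. Among 5 disulfide isomerases and partners, relatives of P4hb, Pdia4 was 5.13-fold and Pdia3 3.71-fold higher and 0 were lower. Pdia4 was also 5.19-fold higher with overexpression than in its negative control, where its level was -4.90, the lowest of the 5 arrays.

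Of the enzymes' substrates, 15 collagen chains could be called, of which 1 was higher with knockdown and 0 lower, with a median of -0.50 log2 beside -0.14 over all genes. Col5a1, a chain of type V collagen, which helps to start fibrils, was 3.57-fold higher. It was 2.05-fold higher than in the overexpression negative control and no longer past the threshold, while against that control Col8a1 was 4.45-fold higher and Col1a2 and Col4a1 were 2.96- and 3.09-fold lower. The chains of the main fibrils, Col1a1, Col1a2 and Col3a1, stood at -0.50, -0.97 and -0.76 log2 from the knockdown negative control. Probes disagreed in direction for Col4a1 and Col14a1. Those used gave -0.75 and -0.77 log2 in that comparison, and the others 1.33, just past the threshold, and 0.87. With overexpression 0 of 15 were past the threshold, with a median of -0.45. Of 7 genes of procollagen processing, Furin, a protease of the secretory pathway, was 2.57-fold lower with knockdown. The meprin Mep1a was at least 2.00 log2 higher, from a dim probe above background on 3 arrays. Its direction turned with the control: Mep1a was 3.76-fold lower with knockdown than in normal cells. Bmp1, which removes the C-terminal propeptide, was at -0.85 log2 and its enhancer Pcolce 1.99-fold lower, both short of the threshold. Against the overexpression negative control Bmp1 and Pcolce were 3.11- and 3.31-fold lower. In that comparison 3 of the 7 genes were lower and 1 higher, beside 16.3% and 13.3% over all genes. Probes disagreed for Tll1: the one used gave -0.23 log2 from the knockdown negative control and the other 3.62.

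Of 17 elastic fibre genes, 2 were higher and 2 lower with knockdown. Ltbp1, which stores latent TGF-beta in the matrix, was 4.96-fold and the fibrillin Fbn1 4.35-fold higher, and the fibre adaptor Emilin1 was 3.30-fold and elastin, Eln, 3.08-fold lower. For Emilin1 and Eln the other probe gave -1.18 and -1.04 log2. Fbn1 was also 3.31-fold lower with overexpression and had a log2 difference of -0.24 between knockdown and the overexpression negative control. Ltbp2 was 3.10-fold lower with overexpression, while its other probe gave -0.20 log2.

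In the list of TGF-beta ligands, receptors and responsive genes, 4 of 9 were higher with knockdown and 0 lower, with a median of 1.30 log2. Among them the matricellular protein Ccn2 was 7.79-fold, the actin-binding Tagln 7.16-fold and the receptor Tgfbr2 3.68-fold higher. The ligands Tgfb1 and Tgfb2 stood at -0.22 and -0.60 log2 and Tgfb3 at 1.30, just short of the threshold. Probes disagreed for Tgfb2, whose other probe gave 0.60 log2, while that of Tgfbr2 gave 1.84 with knockdown and 1.73 with overexpression, against 0.07 from the probe used. Against the overexpression negative control 3 of the 9 were higher and 2 lower: Tagln and Tgfbr2 were 1.98 and 2.40 log2 higher, Ccn2 was short of the threshold, and Tgfb2 and the receptor Tgfbr1 were 2.63- and 3.26-fold lower.

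P4ha1, P4ha2, Plod2 and Loxl2 are known targets of hypoxia-inducible factors, and the other genes of that system are given beside them. Of 17 hypoxia targets, 1 was higher with knockdown and 1 lower, with a median of 0.12 log2. The vasoactive peptide Adm was 4.11-fold higher and the mitophagy receptor Bnip3 3.23-fold lower, and Vegfa, Slc2a1, Ldha and Pgk1 stood at -0.74, -0.18, -0.76 and -0.82 log2. Against the overexpression negative control Adm was 2.12-fold higher and short of the threshold, and 2 targets were higher and 3 lower, Bnip3 among them. The 3 other probes of Vegfa were higher with knockdown instead, short of the threshold. Of the factors, Hif1a was at 0.20 log2 and Arnt, their shared partner, 6.16-fold higher from a dim probe. Hif1a was 2.87-fold higher with overexpression, its level being -0.31, against -1.83 in the overexpression negative control, and knockdown stood 3.74 log2 above that control. The direction with overexpression turned with the control: against the knockdown negative control, at 1.71, Hif1a was 4.05-fold lower. The 2 negative controls were 3.54 log2 apart for this gene. Of 5 other measured dioxygenases 0 were past the threshold with knockdown or overexpression against its own negative control, where 18.1% and 3.09% of all genes were. The knockdown result depended on the control. Against the overexpression negative control 2 were higher and 1 lower, beside 13.3% and 16.3% over all genes. Egln2 and Hif1an were 3.39- and 3.11-fold higher there and Kdm4b 3.36-fold lower. In the list of ascorbate and iron handling, with 7 genes that could be called, the iron exporter Slc40a1 was 4.54-fold lower with knockdown. The glucose transporter Slc2a3 was 2.77-fold higher, from a dim probe. Tfrc, at 1.28 log2, was just short of the threshold, and its other probe gave 2.66. Against the overexpression negative control 2 of the 7 were higher and 2 lower, with Tfrc 4.03-fold higher.

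**Figure D4:**
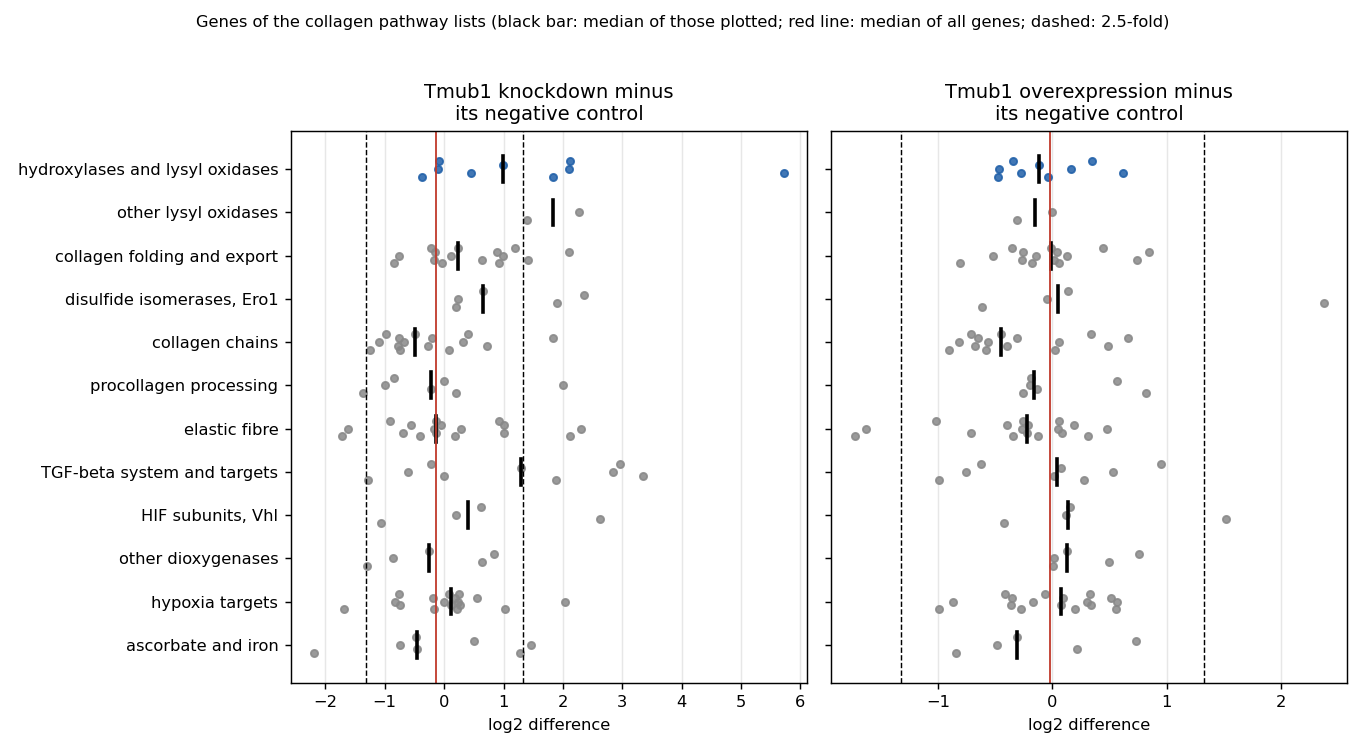
Log2 differences of the members (blue) and of the genes in the 11 pathway lists (grey) for Tmub1 knockdown and Tmub1 overexpression, each minus its negative control. Each point is a gene that could be called, black bars are medians, the red line is the median of all genes and dashed lines mark 2.5-fold; the points past the upper line with knockdown include P4ha3 at 5.72 and Ccn2 at 2.96.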

How the data were processed

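Expression was measured in 5 groups of BRL-3A cells with 1 one-colour Agilent array each. Per the file headers, the authors' scanner files were made with Agilent Feature Extraction 11.0.1.1, while the submitters' processing notes name version 9.1. They hold the processed signal as an intensity, background-subtracted and detrended within the array, with no scaling between arrays. The authors' deposited table is in log2 units, and its columns share a median of 6.685 and the same quartiles. Which software made it remains not given in the sources used here.

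Control spots and spots marked as outliers were left out, replicate spots were averaged, and from log2 signals the array's own 75th percentile was subtracted. Of 30367 probes 30100 had a usable spot on all 5 arrays, and 17865 were named through RefSeq, giving 15069 genes. Where a gene had several probes, the brightest by mean level stood for it. Values given for other probes are plain differences of levels, with no check against background. Array design (rn4) and RefSeq table (GRCr8) differ in build.

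A difference could be called where either array was well above background, and a value not above background was raised to the array's lowest one that was, which gives a bound ("at least"). Scanner intervals use the error of the processed signal, and the number of arrays limits the precision. Members, lists and motifs were chosen with earlier results of these data known. Named genes were all members, up to 4 called genes per list and direction, and the 5 genes nearest to the member of widest range. One gene named by this rule is not reported here. Other list values serve as context and were chosen after they were seen. limma 3.58.1 gave quantile normalization, cyclic loess and normexp (offset 50, on median pixel signals, the mean was not used here). The calling step was tested on simulated data.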

Additional observations from a re-analysis of the deposited data

How the results depend on the processing

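P4ha1, P4ha2, P4ha3 and Loxl2 were at least 2.5-fold higher with knockdown under the 5 alternatives of scaling, background and value source. Averaging all probes of a gene could not move them, since each has 1 probe. The ranges, with the value reported above included, were 3.13- to 5.09-fold for P4ha1, 4.01- to 6.49-fold for P4ha2, 24.3- to 64.8-fold for P4ha3 and 3.57- to 5.28-fold for Loxl2, with the lowest value under normexp each time. Plod3 joined them under 3 of these alternatives. P4hb reached up to 0.67 log2 and Plod2 reached up to 1.14 under quantile normalization, cyclic loess and in the authors' deposited table, against -0.10 and 0.46 as reported. The cause was not tested. At 4-fold 3 members were higher with knockdown, P4ha1 falling short. With overexpression 0 members passed under any setting except against normal cells, where 2 were lower.

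Counts over all genes moved more. With knockdown 1696 were higher and 680 lower with the percentile over probes above background on all arrays, 502 higher with normexp, 1760 and 2221 at 2-fold, 394 and 286 at 4-fold, 1690 and 2072 against the other negative control, and 2668 lower against normal cells, where 1105 and 1215 were reported. With overexpression, where 224 and 140 were reported, 36 and 39 passed with normexp, 146 were higher in the authors' values, 139 and 93 passed when only genes detected everywhere were kept, 409 and 337 with no filter, 471 and 300 at 2-fold, 49 and 32 at 4-fold, 991 and 1407 against normal cells, and 262 were lower against the other negative control. The 2 negative controls differed in 1074 and 997 genes at 2-fold, against 590 and 454. The share of calls that were higher with knockdown was 47.6%, against 71.4% with the percentile over probes above background and 36.4% with normexp, and with overexpression 61.5%, against 48.0% with normexp. The median of all genes with knockdown moved between -0.32 and 0.08 log2 with the scaling. Relative to its -0.14, P4ha1, P4ha2, P4ha3 and Loxl2 stood at 1.98, 2.26, 5.86 and 2.25. No paired analysis was possible because each group has 1 array and the groups share 1 replicate number.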
